A study of Homo sapiens with 4 samples.

Results

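The RNA of 9 target genes of the transcription factor p53 was compared in MDA-MB-231 cells with and without depletion of the receptor tyrosine kinase AXL. MDM2, TP53INP1, TP53I3, SESN1, ZMAT3, BTG2, GADD45A, FAS and XPC were taken by symbol from the deposited table, where each symbol has a single row, out of 63677 genes in all. The established human line MDA-MB-231 stems from a triple-negative breast cancer, and its cells, grown in DMEM with serum, received by lipofection either a control siRNA (siCt, 2 libraries) or a commercial pool of siRNAs against AXL (siAxl, 2 libraries). The authors sequenced total RNA, counted the reads of each gene and divided them by a size factor of the library, and these normalized counts are the unit used here. Nothing in the labels says whether the 2 libraries of a group came from separate cultures, so the p-values measure only the spread between these libraries, which may be technical. With a single pool, effects of AXL loss and other effects of the siRNAs cannot be told apart.

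AXL itself had 29189 and 30617 normalized counts in the siCt libraries, against 8658 and 7141 in the siAxl libraries, a log2 fold change of -1.93 (SE, the standard error, 0.0919; limma adjusted p = 0.000585). The recovered reads summed to between 39574387 and 44585773 per library. The mesenchymal markers VIM and CD44 had at least 33968 normalized counts in every library, whereas the hormone receptors ESR1 and PGR had at most 3.25. ERBB2 and EPCAM were not absent, at 2949 to 3680 and 565 to 771 normalized counts, and CDH1 had between 22.6 and 94.3. Of these markers, ERBB2 rose (log2 fold change 0.26, limma adjusted p = 0.0258) and the epithelial cadherin CDH1 fell (log2 fold change -1.64, limma adjusted p = 0.00847), and their part in the results given here was not tested. The test was limma on log2(normalized count + 1), a scale which understates the change of low genes, and those with an adjusted p under 0.05 (Benjamini-Hochberg, over the 16064 genes tested) count as called. Of these, 18.7% were called, 10.8% as higher and 7.91% as lower in siAxl. Among 1736 genes with the bases CACATCA in the longest 3' untranslated region, 24.9% were called higher, against 10.9% of 11287 without them. BTG1, CMBL, PNMA2 and ZFP36L1, all called higher, carry these bases, as do MDM2, MDM4 and RAP2B, which were not called. TP53INP1, GADD45A and CCNG1, called higher, lack them, and the cause was not tested. Scaling by total reads in place of the size factors moved the share of higher genes among those called from 57.7% to 46.8%. That share moved in other settings too, to 69.0% with every gene of at least 1 read tested and 51.1% with the replicate number as a block. With 2 libraries against 2, an exact permutation test cannot give a two-sided p under 0.333, so every call depends on limma's pooling of the spread over genes.

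p53 is activated by DNA damage and other stress and switches on genes that stop the cell cycle, repair DNA, restrain growth or kill the cell. One of its targets, MDM2, is the ubiquitin ligase that marks p53 for destruction, which closes a feedback loop. p53 binds DNA as a tetramer, at elements made of paired copies of a 10-base arm with a C and a G at fixed places. Many target genes also answer to other transcription factors, so that their transcripts need not follow p53.

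The promoter sequences of RefSeq (GRCh38.p14, 250 bases before to 50 after a gene start) were searched on both strands for the p53 response element, a sequence that p53 can bind. Windows were found for 7 of the 9 members, and GADD45A and TP53INP1 had none in the table. With at most 2 mismatches in all, 0 to 13 bases between the arms and the C and G of both arms kept, the element was found in the windows of 2 members (28.6% of the 7), MDM2 and FAS. Counted by gene in the same way, 10.9% of the 46 other p53 targets with a window held it, and 3.62% of all 27305 genes with a window. Genes can have several windows, and of all 35116 windows 2.93% held it. With 3 mismatches, a limit chosen after the first scan was seen, SESN1 and ZMAT3 were added, which made 57.1% of the 7 members, against 32.6% of the other p53 targets, 15.3% of all genes with a window and 12.8% of all windows. The matches are given in the direction of the gene, with the 4 central bases of each arm in capitals.
MDM2: ggtCAAGttcagaCACGttc
FAS: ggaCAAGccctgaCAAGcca
SESN1: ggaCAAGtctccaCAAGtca
ZMAT3: gggCCTGctccgccaagcaCATGcgc
The MDM2 element lies at chr12:68808923-68808942 on the plus strand, within windows 3 and 4 of the 4 windows of MDM2 and not in the first one, and differs from the consensus at 2 bases. That of FAS lies at chr10:88991309-88991328 on the plus strand, in the second of its 3 windows, with 2 mismatches. In SESN1 the match is at chr6:109009018-109009037 on the minus strand, in the third of its 3 windows, with 3 mismatches. In ZMAT3 it is at chr3:179071867-179071892 on the minus strand, with 3 mismatches and 6 bases between the arms. These are matches of letters only, and the libraries hold no measure of binding. A site outside the windows or of another form would be missed, so a member without a match may still have a site.

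Among the 9 members, TP53INP1 and GADD45A were higher and SESN1 was lower in siAxl, and the other 6 did not pass the test. The 3 calls make 33.3% of the members, against 18.7% of all genes tested. The members had a median log2 fold change of 0.047, against -0.0022 over all genes tested. In 4 members the siAxl values were both above or both below the siCt values, as they were in 61.2% of all genes tested. All 9 members passed the filter on low counts. The count fell to 1, TP53INP1 alone, without siAxl 1.

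**Figure D1:**
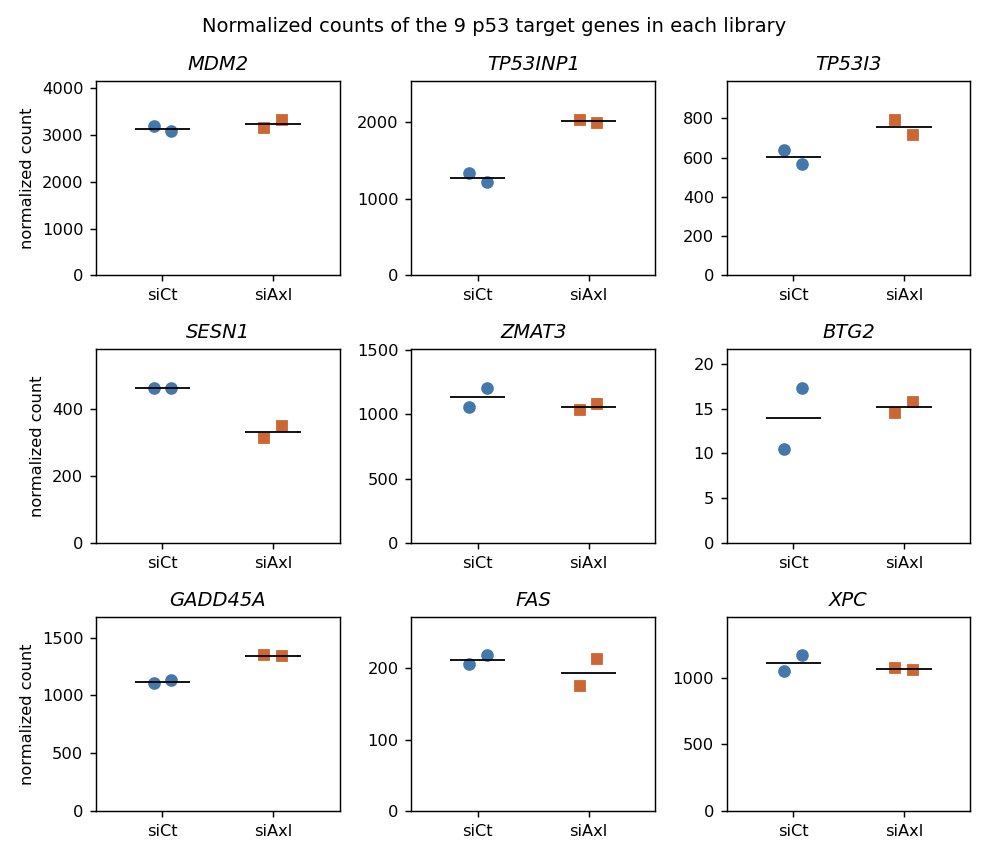
Normalized counts (vertical axes, from 0, each panel with its own scale) of the 9 member genes in the 2 siCt libraries (blue circles) and the 2 siAxl libraries (orange squares), with horizontal lines at the group means. The groups are apart in TP53INP1, TP53I3, SESN1 and GADD45A and overlap in the other 5.

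TP53INP1 (ENSG00000164938) encodes a stress-induced protein that promotes cell death and autophagy. The siCt libraries held 1334 and 1221 normalized counts of it and the siAxl libraries 2034 and 1999. Both siAxl libraries were high and close to each other, and the groups did not overlap. Its mean rose from 1277 ± 79.7 to 2016 ± 24.8 (SD, n = 2 per group), which is 1.58-fold (95% interval 1.41 to 1.77). The log2 fold change was 0.66 (SE 0.0693, limma adjusted p = 0.00265). It was called in each of the 12 other settings tried, between 0.60 and 0.72. The gene lies within NDUFAF6 on the opposite strand without sharing an exon, and NDUFAF6, at 653 normalized counts on average, had a log2 fold change of -0.16 (limma adjusted p = 0.198). Its paralog TP53INP2, likewise linked to autophagy, had a log2 fold change of 0.17 (limma adjusted p = 0.0657), with means of 4667 in siCt and 5267 in siAxl.

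Genes with the profile nearest to TP53INP1 over the 4 libraries, by the Euclidean distance of centred log2 values, were PODXL, PNMA2 and ZFP36L1. PODXL, a sialomucin of the cell surface, had a distance of 0.00963 and a log2 fold change of 0.65. PNMA2 followed with a distance of 0.0223, at 0.65, and ZFP36L1, an RNA-binding protein that destabilizes transcripts, with 0.0225, at 0.66. The measure rests on 4 libraries and singles out genes that rose by the same amount.

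SESN1 (ENSG00000080546) encodes sestrin 1, which dampens mTORC1 signalling and oxidative stress. The siCt libraries held 465 and 464 normalized counts of it, whereas siAxl 1 held 316 and siAxl 2 held 350. Both siCt libraries were high and nearly equal, and the siAxl libraries lay below them. Its mean fell from 464 ± 0.932 to 333 ± 24.2 (SD, n = 2 per group), which left 71.7% of the siCt mean. The log2 fold change was -0.48 (SE 0.0976, limma adjusted p = 0.0181). SESN1 was called in 10 of the 12 other settings and was not called without siAxl 1 (log2 fold change -0.41, limma adjusted p = 0.095) or with every gene of at least 1 read tested (adjusted p = 0.0544). In bulk RNA, a loss from some cells and a smaller loss from each cell cannot be told apart.

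The 3 sestrin genes did not move alike. SESN2, a target of p53 and of ATF4, had means of 551 ± 50.4 in siCt and 586 ± 36.6 in siAxl (SD, n = 2 per group), a log2 fold change of 0.092 (limma adjusted p = 0.568). SESN3, which is known to be driven by FOXO factors, rose from 661 ± 53.4 to 837 ± 51.8 (SD, n = 2 per group). Its log2 fold change was 0.34 (SE 0.0915, limma adjusted p = 0.0426), and its call was lost without siCt 1 (0.26, adjusted p = 0.0907), without siAxl 1 (0.40, adjusted p = 0.0745) and without siAxl 2 (0.28, adjusted p = 0.189). It was also lost with DESeq2 (adjusted p = 0.0515) and with scaling by total reads (adjusted p = 0.0504). The difference between the sestrins was not tested.

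GADD45A (ENSG00000116717), a small acidic protein that takes part in growth arrest and DNA repair, showed 1104 and 1130 normalized counts under siCt, and 1345 and 1340 under siAxl. The libraries of each group were close together and the groups were apart. Its mean rose from 1117 ± 18.7 to 1343 ± 3.44 (SD, n = 2 per group), with a log2 fold change of 0.27 (SE 0.0645, limma adjusted p = 0.0315). The size of the change hardly depended on the library, from 0.25 to 0.28 with each left out, but the call did. It was lost without siCt 1 (adjusted p = 0.0625), siAxl 1 (0.145) or siAxl 2 (0.128), with every gene of at least 1 read tested (0.0688), and with DESeq2 (0.0587) on the recovered reads, while edgeR kept it (0.0264). GADD45B, its paralog, had a log2 fold change of 0.19 (limma adjusted p = 0.138). GADD45G had means of 6.13 and 8.79 normalized counts in siCt and siAxl and was under the filter.

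TP53I3 (ENSG00000115129), also called PIG3, encodes a quinone oxidoreductase linked to reactive oxygen species and apoptosis. Its normalized counts were 637 and 569 under siCt and 793 and 717 under siAxl. The groups did not overlap, although the libraries within a group differed more than those of GADD45A. The means were 603 ± 48.0 and 755 ± 53.2 (SD, n = 2 per group), and the log2 fold change of 0.32 (SE 0.0947, 95% interval 0.10 to 0.55) missed the threshold (limma adjusted p = 0.0546). Without siCt 1 it was 0.41 and passed (adjusted p = 0.0068). TP53I3 shares 80 exon bases with FAM228B on the opposite strand, which had 222 normalized counts on average and a log2 fold change of 0.26 (limma adjusted p = 0.241).

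**Figure D2:**
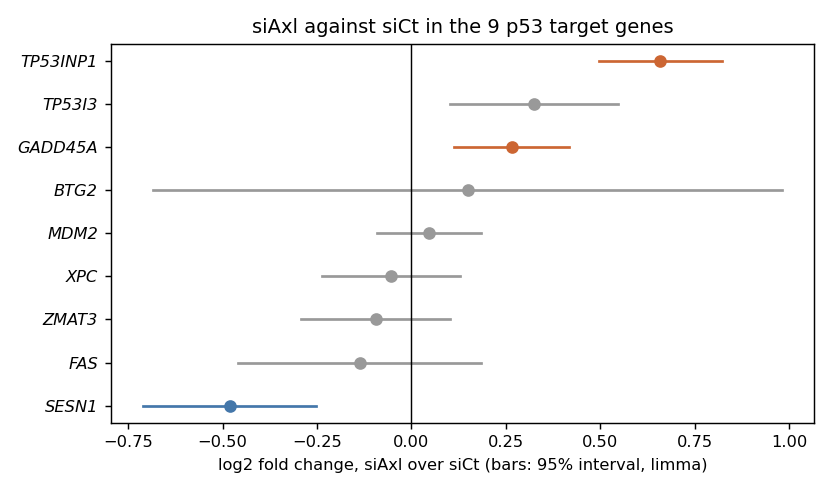
Log2 fold change of siAxl over siCt (horizontal axis) for the 9 members, with bars for the 95% interval of limma, coloured where the adjusted p was under 0.05 (orange higher, blue lower) and grey otherwise. The interval of TP53INP1 runs from 0.50 to 0.82 and that of SESN1 from -0.71 to -0.25, while BTG2 spans -0.68 to 0.98.

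MDM2 (ENSG00000135679), the ligase of the feedback loop, had 3186 and 3089 normalized counts in the siCt libraries and 3159 and 3323 in the siAxl libraries. The groups overlapped, and the interval of the ratio ran from 0.939 to 1.14-fold (limma adjusted p = 0.627). Its relative MDM4, which binds p53 without being a ligase for it, had means of 1446 ± 92.5 in siCt and 1400 ± 207 in siAxl (SD, n = 2 per group; limma adjusted p = 0.777). The last exon of MDM2 meets that of CPM on the opposite strand over 133 bases. CPM rose by 1.15 on the log2 scale (limma adjusted p = 0.00335), from between 86.7 and 94.0 to between 199 and 205 normalized counts, a small number beside that of MDM2.

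XPC (ENSG00000154767), the damage sensor of global nucleotide excision repair, had 1050 and 1168 normalized counts in the siCt libraries and 1073 and 1059 in the siAxl libraries. The siAxl values lay between those of siCt, and the ratio was 0.963-fold (95% interval 0.848 to 1.09, limma adjusted p = 0.672). It shares 318 exon bases with LSM3 on the opposite strand, which had 1894 normalized counts on average. The log2 fold change of LSM3 was -0.20 (limma adjusted p = 0.141). ZMAT3 (ENSG00000172667), an RNA-binding zinc finger protein, had 1059 and 1205 under siCt and 1034 and 1081 under siAxl. These groups overlapped too, with a ratio of 0.936-fold (95% interval 0.816 to 1.07, limma adjusted p = 0.479).

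FAS (ENSG00000026103), the receptor of Fas ligand that triggers apoptosis, gave 206 and 218 normalized counts under siCt and 175 and 212 under siAxl. The groups overlapped through siAxl 2, and the ratio was 0.91-fold (95% interval 0.728 to 1.14, limma adjusted p = 0.535). ACTA2 shares 380 exon bases with it on the opposite strand and had 75.8 normalized counts on average. The log2 fold change of ACTA2 was 0.50 (limma adjusted p = 0.13). Of the partners of FAS, the adaptor FADD and the initiator caspase CASP8 had log2 fold changes of -0.063 and -0.10 (limma adjusted p = 0.524 and 0.316). FASLG, the ligand, was under the filter, at means of 4.5 normalized counts in siCt and 4.88 in siAxl.

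BTG2 (ENSG00000159388), an antiproliferative protein that promotes removal of poly(A) tails, was close to the lower limit of detection. The siCt libraries held 11 and 16 reads of it, with exact Poisson 95% intervals of 5.49 to 19.7 and 9.15 to 26. The siAxl libraries held 15 and 16 reads, with intervals of 8.40 to 24.7 and 9.15 to 26. The intervals cover counting error only and all overlap. A change of BTG2 was not detectable at this depth, with a 95% interval of the ratio from 0.622 to 1.98-fold (limma adjusted p = 0.811). In contrast, its paralog BTG1 was abundant and rose from 4094 ± 116.5 to 5005 ± 24.0 normalized counts (SD, n = 2 per group), a log2 fold change of 0.29 (SE 0.0544, limma adjusted p = 0.0142). The call of BTG1 was lost without siAxl 1 (adjusted p = 0.0631) and without siAxl 2 (0.0648).

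**Figure D3:**
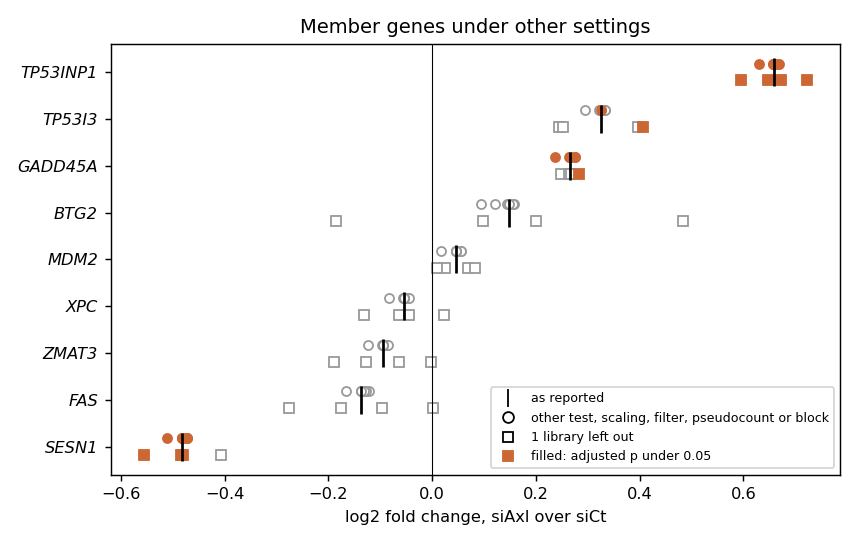
Log2 fold change of siAxl over siCt (horizontal axis) of each member as reported (black bar), with 1 library left out (squares) and under the other settings (circles); filled symbols have an adjusted p under 0.05. TP53INP1 is filled throughout, GADD45A in 7 of 12 settings, and BTG2, FAS and XPC each cross 0 when 1 library is left out.

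Per length, the members spanned a wide range of levels. Divided by the union of exons in GENCODE 29, GADD45A had the highest level, with a mean of 540 normalized counts per kb in siCt, and BTG2 the lowest, with 5.06. Between them in siCt came TP53I3 (261 per kb), MDM2 (236), XPC (231), TP53INP1 (225), ZMAT3 (117), SESN1 (90.7) and FAS (49.8). The siCt libraries of MDM2, XPC and TP53INP1 overlapped in level, so these neighbours did not differ beyond their spread, while the other neighbours did not overlap. In siAxl, TP53INP1 reached 355 per kb and stood second behind GADD45A (649). TP53I3 (327), MDM2 (244), XPC (222), ZMAT3 (110), SESN1 (65), FAS (45.5) and BTG2 (5.49) followed in that order, without overlap between neighbours. The union of exons counts every annotated transcript, also those these cells may not use, so a long gene such as MDM2 may be placed too low.

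A list of regulators, relatives and cofactors of p53 held 19 genes, of which 18 were tested, 1 was called higher and 0 lower, and edgeR and DESeq2 also called 0 lower. At an unadjusted p under 0.05 in limma, 3 were lower, CHEK1, CHEK2 and EP300 (log2 fold changes -0.16, -0.27 and -0.19, limma adjusted p = 0.0953, 0.101 and 0.104). The gene called was PPP1R13L, which encodes iASPP, an inhibitor of p53, and rose from 2182 ± 222.5 to 2810 ± 120 normalized counts (SD, n = 2 per group). Its log2 fold change was 0.37 (SE 0.0817, limma adjusted p = 0.0242), and without siAxl 1 it was 0.32 and not called (adjusted p = 0.0904), nor was it with every gene of at least 1 read tested (0.0899). CDKN2A, the locus of the MDM2 inhibitor ARF, had 1 read in siCt 1 and 0 in the other libraries.

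Among 56 further p53 targets listed from general knowledge, 54 were tested, 6 were called higher and 7 lower in siAxl, and 41 did not pass. The share called was 24.1%, against 18.7% of all genes tested, and the median log2 fold change was -0.043. The count rested on single libraries, with 8 called without siCt 2, 5 without siAxl 1 and 5 without siAxl 2. The other 2, EDA2R and TP53AIP1, were under the filter, and EDA2R had 0 reads in each library. CCNG1, TNFRSF10D, DRAM1, GDF15 and PLK2 were the 5 called without siAxl 1, without siAxl 2 and with every gene of at least 1 read tested, so the other 8 lost their call in each of these settings. The genes are described by role, and the roles were assigned after the values were seen.

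**Figure D4:**
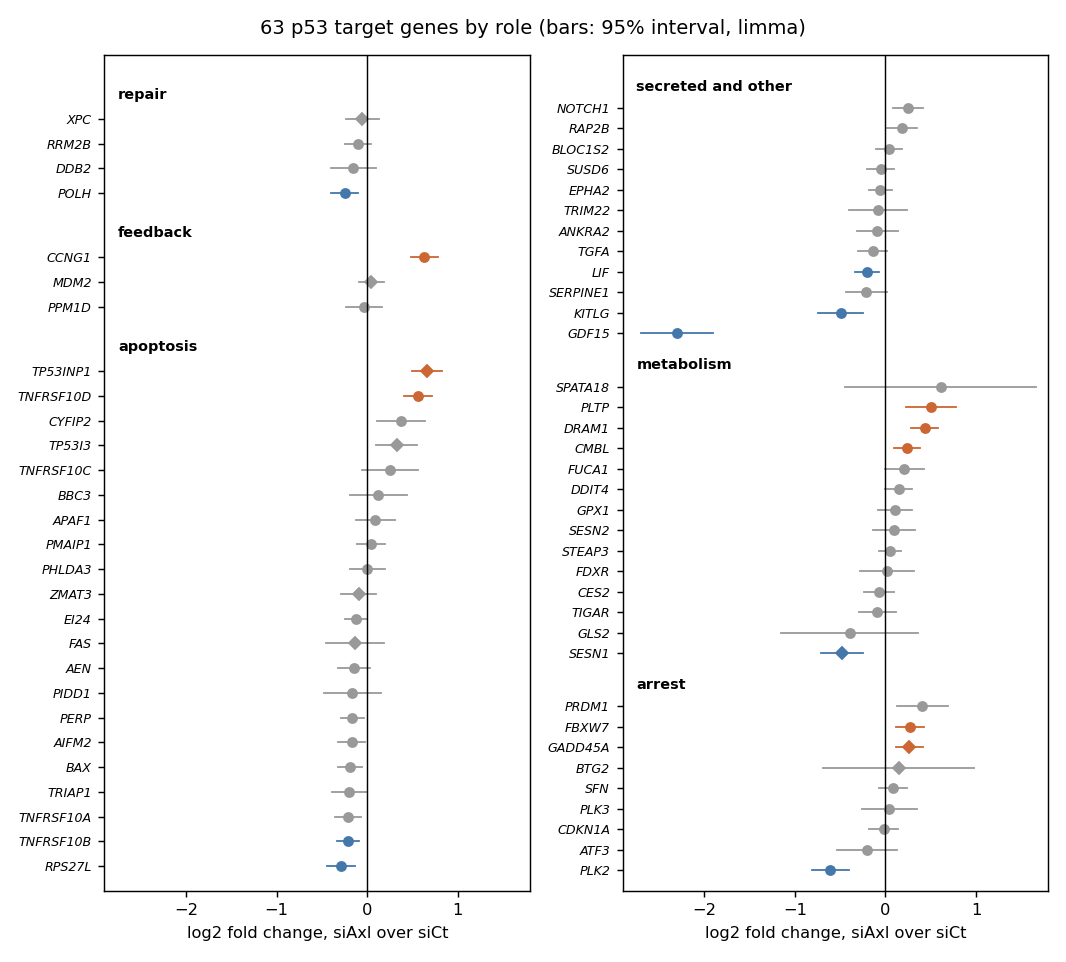
Log2 fold change of siAxl over siCt (horizontal axes) with 95% intervals of limma for the 9 members (diamonds) and the 54 other p53 targets tested (circles), grouped by role. Orange and blue mark genes called higher and lower and grey the rest, and GDF15, at -2.30, stands farthest from 0 among them.

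In the feedback group, CCNG1, the cyclin G1 that recruits phosphatase 2A to MDM2, rose from 2270 ± 53.1 to 3518 ± 186 normalized counts (SD, n = 2 per group), with a log2 fold change of 0.63 (SE 0.0629, limma adjusted p = 0.00236). PPM1D, the phosphatase WIP1 that switches off p53 signalling, had means of 779 and 762 (log2 fold change -0.032, limma adjusted p = 0.831). Hence CCNG1 passed the test while MDM2 and PPM1D did not.

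Of 9 genes of growth arrest tested, GADD45A and FBXW7 were called higher and PLK2 lower. CDKN1A encodes the CDK inhibitor p21, the best known target of p53 in arrest, with 6928 and 7174 normalized counts under siCt and 6577 and 7357 under siAxl. The siCt values lay between those of siAxl (ratio 0.987-fold, 95% interval 0.883 to 1.1, limma adjusted p = 0.872). PLK2, a polo-like kinase, fell from 13236 ± 1469 to 8663 ± 518 normalized counts (SD, n = 2 per group), a log2 fold change of -0.61 (SE 0.0852, limma adjusted p = 0.00561). FBXW7, the ubiquitin ligase subunit for cyclin E and MYC, had a log2 fold change of 0.27 (limma adjusted p = 0.0298), lost without siCt 2, siAxl 1 or siAxl 2 (adjusted p of 0.0763, 0.144 and 0.116) and with DESeq2 (0.0537).

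Of 21 apoptosis genes tested, TP53INP1 and TNFRSF10D were called higher and TNFRSF10B and RPS27L lower. TNFRSF10D, a decoy receptor for TRAIL that lacks a working death domain, rose from 2530 ± 161.5 to 3731 ± 24.5 normalized counts (SD, n = 2 per group), a log2 fold change of 0.56 (SE 0.0642, limma adjusted p = 0.00329). TNFRSF10B, the TRAIL death receptor DR5, was far more abundant and fell from 14512 ± 21.1 to 12525 ± 152 (SD, n = 2 per group; log2 fold change -0.21, limma adjusted p = 0.0316). That call was lost when any of the 4 libraries was left out, with adjusted p between 0.0885 and 0.159. The other TRAIL receptors, TNFRSF10A (DR4) and the decoy TNFRSF10C, had log2 fold changes of -0.21 and 0.25 (limma adjusted p = 0.0525 and 0.218). These 4 genes are close relatives, between which reads may have been shared.

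Among the BCL2 family targets, BAX had a log2 fold change of -0.19 (limma adjusted p = 0.0594). BBC3 (PUMA) and PMAIP1 (NOXA), both BH3-only killers, had 0.12 and 0.042 (limma adjusted p = 0.571 and 0.709). RPS27L, a ribosomal protein paralog, had a log2 fold change of -0.29 (limma adjusted p = 0.0251) and lost its call without siCt 2 (adjusted p = 0.0774), siAxl 1 (0.117) or siAxl 2 (0.0866).

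Of 4 DNA repair genes, POLH, the polymerase that copies past ultraviolet lesions, was called lower (log2 fold change -0.25, limma adjusted p = 0.036). Its call was lost without siCt 2 (adjusted p = 0.146), siAxl 1 (0.156) or siAxl 2 (0.116). DDB2, the other damage sensor of nucleotide excision repair, had a log2 fold change of -0.15 (limma adjusted p = 0.365), and RRM2B, the ribonucleotide reductase subunit induced by p53, had -0.10 (limma adjusted p = 0.282). RAD23B and CETN2, binding partners of XPC, had log2 fold changes of -0.10 and 0.13 (limma adjusted p = 0.252 and 0.164).

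The 14 metabolic, redox and autophagy targets held 3 genes called higher and 1, SESN1, called lower. DRAM1, a lysosomal membrane protein that promotes autophagy, rose from 1050 ± 6.5 to 1419 ± 15.2 normalized counts (SD, n = 2 per group), a log2 fold change of 0.43 (SE 0.0643, limma adjusted p = 0.00677), and was called in all 12 other settings. PLTP, which transfers phospholipids between lipoproteins, and CMBL, a hydrolase, had 0.50 and 0.24 (limma adjusted p = 0.0287 and 0.0346). Neither was called with DESeq2 (adjusted p = 0.0564 and 0.065). Without siAxl 1 and without siAxl 2 both calls were lost (PLTP 0.143 and 0.0661, CMBL 0.148 and 0.15), and CMBL was also not called without siCt 2 (0.102). TIGAR, which lowers glycolytic flux, had a log2 fold change of -0.090 (limma adjusted p = 0.519).

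Of 12 secreted factors, receptors and other targets, 3 were called lower and 0 higher in limma. NOTCH1 and RAP2B were the higher ones at an unadjusted p under 0.05 (limma adjusted p = 0.0516 and 0.119), of which edgeR called NOTCH1 (adjusted p = 0.0362) and DESeq2 neither. GDF15, a cytokine of the TGF-beta family that is also induced by ATF4, fell from 2951 ± 597 to 598 ± 119 normalized counts (SD, n = 2 per group; log2 fold change -2.30, limma adjusted p = 0.0013). KITLG, the ligand of the receptor KIT, had means of 515 ± 58.9 and 364 ± 7.15 (SD, n = 2 per group; log2 fold change -0.49, limma adjusted p = 0.0225). Its call was lost without siCt 2 (adjusted p = 0.0543), siAxl 1 (0.0757) or siAxl 2 (0.0561). LIF, a cytokine of the interleukin 6 family and outside the naming rule, was the other one lower (log2 fold change -0.20, limma adjusted p = 0.0479), and neither edgeR (0.0576) nor DESeq2 (0.0506) called it. In edgeR's quasi-likelihood test on the recovered reads, 14 of the 54 targets were called, 7 of them higher, and in DESeq2 there were 9, 3 of them higher.

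Of 18 paralogs and partners of the members, 14 were tested and 4 were called higher. Besides BTG1 and SESN3, the higher ones were TOB2, an antiproliferative relative of BTG2, and ZMAT1, a zinc finger relative of ZMAT3. Their log2 fold changes were 0.26 and 0.72 (limma adjusted p = 0.0365 and 0.0366). Neither was called without siCt 2, siAxl 1 or siAxl 2, with adjusted p of 0.0548, 0.0723 and 0.205 for TOB2 and 0.0754, 0.103 and 0.079 for ZMAT1. Over the regulators, paralogs and partners together, 18.8% of the 32 genes tested were called, and 1 was called without siAxl 1 and 2 without siAxl 2.

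**Figure D5:**
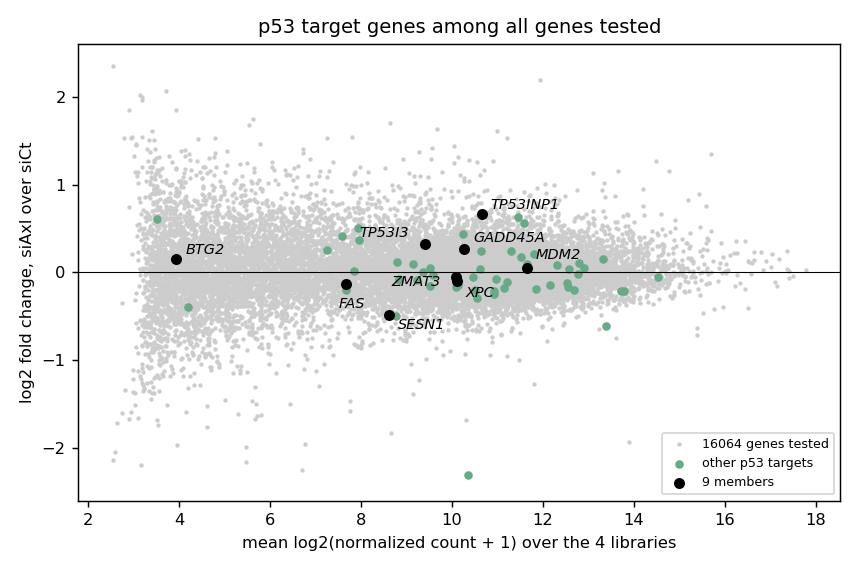
Log2 fold change of siAxl over siCt (vertical axis) against the mean log2(normalized count + 1) over the 4 libraries (horizontal axis) for the 16064 genes tested (grey), the other p53 targets (green) and the 9 members (black, named). TP53INP1 at 0.66 and SESN1 at -0.48 are the members farthest from 0, and GDF15 is the green point at -2.30.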

How the data were processed

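RNA from MDA-MB-231 cells was sequenced by the authors on an Illumina HiSeq instrument. The submitters' processing notes name CASAVA 1.8, TopHat2 2.0.10, HTSeq 0.5.3, DESeq2 1.4.5 and the build GRCh37, and the strand setting is not given in the sources used here. The deposited table holds a signal per gene and library, reads divided by the DESeq2 size factor, and columns of the authors' own comparison (fold changes, standard errors, p-values), which were not used. In each library 100% of values were whole multiples of 1 read (tolerance 0.01), so reads could be recovered. Genes kept by edgeR's filterByExpr (16064 of 63677) were tested with limma 3.58.1 (lmFit, eBayes with trend; R 4.3.3) on log2(value + 1). edgeR 4.0.16 and DESeq2 1.42.0 on recovered reads, TMM and total-read scaling, a filter of 1 read, pseudocounts of 0.5 and 8, a threshold of 0.01, a replicate block and each library left out were alternatives. The limma script was tested on simulated data.

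The members and lists were chosen with earlier results of these data known. Besides the members and AXL, the text names from each list the 6 called genes with the smallest adjusted p in each direction, the direct paralogs, and the 3 genes nearest to the member with the smallest p. CDKN1A, BAX, CHEK1 and further genes that did not pass, and the genes overlapping members were named after their values were seen. The 4 listed symbols absent from the table were matched by Ensembl identifier. Exon unions and overlaps came from GENCODE 29 (GRCh38), matched by identifier. Some genes of the lists are not reported here.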

Additional observations from a re-analysis of the deposited data

How the results depend on the processing

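TP53INP1 was called in all 12 other settings, SESN1 in 10, GADD45A in 7 and TP53I3 in 2, while MDM2, ZMAT3, FAS, XPC and BTG2 were called in none of those run (BTG2 has no adjusted p in DESeq2). With 1 library left out, BTG2 ran from -0.18 to 0.48, FAS from -0.28 to 0.0024, XPC from -0.13 to 0.022, SESN2 from -0.0012 to 0.19 and MDM4 from -0.20 to 0.099, so their signs rest on single libraries. The log2 fold change of AXL ran from -2.07 to -1.79. Genes called over all genes tested, 3006 as reported, ran from 1301 to 3900 with 1 library left out. The members called, 3 as reported, ran from 1 to 3, the other p53 targets, 13 as reported, from 5 to 15, and the regulators, paralogs and partners, 6 as reported, from 1 to 9. A lone library is then assumed to vary like the other group. With every gene of at least 1 read tested, the 4 counts were 1097, 1, 5 and 2, with 27108 genes in the adjustment. At an adjusted p under 0.01 they were 859, 1, 5 and 1. Where a setting did not itself change the genes tested or the threshold, the cause was not tested.

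The libraries of the groups share the numbers 1 and 2, but no label says that a number marks a shared culture or day, and the deviations of same-numbered libraries correlated at 0.271. With the replicate number as a block, 7310 genes were called, of which 4 were members (TP53I3 joined, adjusted p = 9.06e-05), 30 other p53 targets and 21 regulators, paralogs and partners (TP53INP2 and GADD45B among them). With 2 libraries per group, the spread of any single gene is poorly known, and genes with few reads such as BTG2 are limited by counting.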
